A study of Mus musculus with 4 samples.

Results

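The genes described here encode subunits of the machines that every dividing cell uses: the ribosome, translation initiation factors eIF2, eIF2B and eIF3, the proteasome, the CCT chaperonin, spliceosomal proteins, the nuclear RNA polymerases, the MCM helicase and the nuclear pore. They were chosen by gene symbol alone, with a pattern that takes numbered Rpl, Rps, Psma to Psmd, Polr1 to Polr3, Eif2b, Eif2s, Eif3, Mcm, Snrp, Sf3a, Sf3b, Cct and Nup symbols. In the 2 tables of the series, 37 genes of 5614 listed genes fitted this pattern. The RefSeq annotation of assembly GRCm38.p6 holds 222 genes with such symbols and curated protein-coding transcripts, among 21035 genes in all, and so 185 of the 222 were listed in neither library. The pattern also takes in 19 paralogs, inducible subunits and assembly factors, of which 2 were listed (Psma8 and Snrpn). Whether the genes are essential in these cells was not measured.

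The study mapped piggyBac transposon insertions in pooled mutant cells. They were mouse haploid neural stem cell-like cells of a 129Sv background. They had been derived from haploid embryonic stem cells through embryoid bodies and grown with FGF2 and EGF (20 ng/ml each), the BMP receptor inhibitor LDN193189 (300 nM), the activin and TGF-beta receptor inhibitor SB431542 (10 µM) and a ROCK inhibitor. All cells received a gene trap plasmid (20 µg) with a transposase plasmid (10 µg) and were selected with G418. Library 1 and library 2 share all of these labels, and no treatment or genotype is given that sets them apart. Each is a table of reads per gene that pools 2 of the 4 samples with no column per sample, so there is no replicate error and no test between the libraries. Counts of genomic DNA reads cannot check the cell type.

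As background, piggyBac inserts at the tetranucleotide TTAA, and a gene trap carries a splice acceptor that can cut short the transcript of the gene it enters. A haploid cell has no second copy of a disrupted gene. Genes whose loss stops growth are therefore a common yardstick for mutant pools of this kind, and the ribosome, proteasome and spliceosome are the textbook examples of such genes. Each table gives, per the file headers, a count of nonredundant and of redundant reads for each gene. A gene is in a table only if it had at least 1 read. Reads are PCR products without molecular identifiers, so neither count is a number of insertions or of cells, and all intervals cover counting error only.

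Library 1 listed 26 of the 222 genes (11.7%), against 19.9% of all annotated genes. Library 2 listed 20 of them (9.01%), against 15.0% of all annotated genes. In either library, 37 of 222 (16.7%) were listed, against 26.6% of all. In relation to the background, the member shares were lower at 2 or more reads than at 1. With 2 or more nonredundant reads there were 5 members in library 1 (2.25%, against 9.19% of all genes), 3 in library 2 (1.35%, against 6.07%) and 8 in either (3.60%, against 12.1%). With 10 or more there were 2 in library 1 (0.901%, against 2.37%), 1 in library 2 (0.450%, against 1.40%) and 3 in either (1.35%, against 3.56%). Most of the members are short genes, and the longest of 10 length classes holds just 2 of them. Without that class, 25 of 220 members were listed in library 1 (11.4%, against 14.1% of all genes) and 18 in library 2 (8.18%, against 10.2%). At 2 or more reads the shares were then 2.27% against 4.57% in library 1 and 1.36% against 2.81% in library 2. At 10 or more they were 0.909% against 1.14% and 0.455% against 0.724%. These shares are still not matched in length, since 160 of the 222 members fall in classes 1 to 5. In those classes, 6.88% of members were listed in library 1 (against 4.49% of all genes) and 5.62% in library 2 (against 2.86%). In classes 6 to 9 the shares were 23.3% against 26.1% and 15.0% against 19.4%.

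The 26 members of library 1 held 60 of its 55442 nonredundant reads (0.108%, 95% Clopper-Pearson interval 0.0826 to 0.139). They made up 0.621% of the genes it listed. The 20 members of library 2 held 35 of 48750 (0.0718%, interval 0.0500 to 0.0998) and made up 0.631% of its listed genes. The share of reads in library 2 was 0.124% without the 10 genes with most reads and 0.00761% on redundant reads. On redundant reads the share in library 1 was 0.023%. The mean was 2.31 reads per listed member in library 1, against 13.3 per listed gene. In library 2 it was 1.75 per listed member, against 15.4 per listed gene. The median was 1 read throughout, for members and for all listed genes. The gene with most reads held 1506 in library 1 and 4988 in library 2. The longest length class held 1507 listed genes in library 1 and 1227 in library 2, but just 1 and 2 listed members. These shares and means are therefore not matched in length. Psmb5 alone held 14 of the 35 reads in library 2, and without it 21 remained. Snrpd1 held 18 of the 60 in library 1, and without it 42 remained.

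Snrpd1 had the most nonredundant reads of any member. It encodes a core Sm protein of the ring that assembles on spliceosomal small nuclear RNAs. It had 18 reads in library 1 (0.0325% of the library, interval 0.0192 to 0.0513), and library 2 did not list it. Its redundant count of 20 was scarcely larger. Among the 193 genes of library 1 with 10 to 30 nonredundant reads, the redundant count was 3.73 times the nonredundant count in the median gene, with quartiles of 1.59 and 6.29. For Snrpd1 this ratio was 1.11, and just 12 of the 193 genes had a lower one.

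Psmb5 encodes the subunit of the 20S proteasome with chymotrypsin-like activity, the main target of proteasome inhibitor drugs. It had 1 nonredundant and 1 redundant read in library 1, and 14 nonredundant and 43 redundant reads in library 2. The 14 reads were 0.0287% of library 2 (interval 0.0157 to 0.0482), which placed it at rank 239 of 3168 genes. Psmb5 was the member of library 2 with most reads, and it was the one gene among the 3 leading members that both libraries listed. Its redundant count was 3.07 times its nonredundant count, against a median of 2.77 in the 131 genes of library 2 with 10 to 30 nonredundant reads.

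Rps4x, the X-linked gene of a protein of the small ribosomal subunit, had 12 nonredundant and 37 redundant reads in library 1, and library 2 did not list it. The 12 reads were 0.0216% of library 1 (interval 0.0112 to 0.0378). It was the only ribosomal protein gene with more than 1 nonredundant read in these libraries. Ribosomal protein genes have many processed copies in the genome, and 301 annotated pseudogenes are named after the 80 ribosomal members, against 11 named after the other 142. Rps4x and Psmb5 have 1 pseudogene named after them each and Snrpd1 has 0. Pseudogenes under other names were not counted, so these are not numbers of copies. How reads that match several copies were handled is not given in the sources used here, so the counts of Rps4x, Psmb5 and Snrpd1 are uncertain to that extent.

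The tables hold no insertion positions. The upstream sequences of Psmb5, Rps4x and Polr3b, the member with most reads after the 3 leading ones, are shown so that the letters piggyBac recognises can be seen beside these genes. That of Snrpd1 is not shown here. That these chosen windows hold TTAA is a description and no finding. Each is the stretch of 250 bases before the annotated start, 5′ to 3′ on the gene's strand, from RefSeq (GRCm38.p6), with TTAA in capitals. Psmb5 lies on the minus strand (chr14:54617996-54618245), Rps4x on the minus strand (chrX:102189392-102189641) and Polr3b on the plus strand (chr10:84622048-84622297).
Psmb5: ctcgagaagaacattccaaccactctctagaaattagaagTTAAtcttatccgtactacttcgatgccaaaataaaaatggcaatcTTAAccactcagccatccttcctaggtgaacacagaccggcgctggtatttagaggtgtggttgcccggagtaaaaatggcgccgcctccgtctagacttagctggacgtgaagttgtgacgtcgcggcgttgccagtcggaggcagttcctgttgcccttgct
Rps4x: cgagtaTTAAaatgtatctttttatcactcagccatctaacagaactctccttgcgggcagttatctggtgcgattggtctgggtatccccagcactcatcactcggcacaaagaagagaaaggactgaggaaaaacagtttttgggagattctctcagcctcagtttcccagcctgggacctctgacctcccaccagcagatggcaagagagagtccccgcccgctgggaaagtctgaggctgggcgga
Polr3b: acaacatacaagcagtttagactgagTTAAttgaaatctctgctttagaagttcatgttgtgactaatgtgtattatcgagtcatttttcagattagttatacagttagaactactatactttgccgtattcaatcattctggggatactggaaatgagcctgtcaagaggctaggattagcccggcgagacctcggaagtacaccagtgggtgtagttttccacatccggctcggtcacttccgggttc
TTAA occurred 2 times in the Psmb5 window and 1 time each in the Rps4x and Polr3b windows. TTAA reads the same on both strands and was the only motif searched. Windows were found for 30 of the 37 listed members, and 20 of these (66.7%) held TTAA. The share was 45.2% (80 of 177) over all annotated members with a window, 40.3% (1795 of 4456) over all listed genes and 46.0% (7744 of 16853) over all annotated genes. These shares describe the windows and place no read in them.

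**Figure D1:**
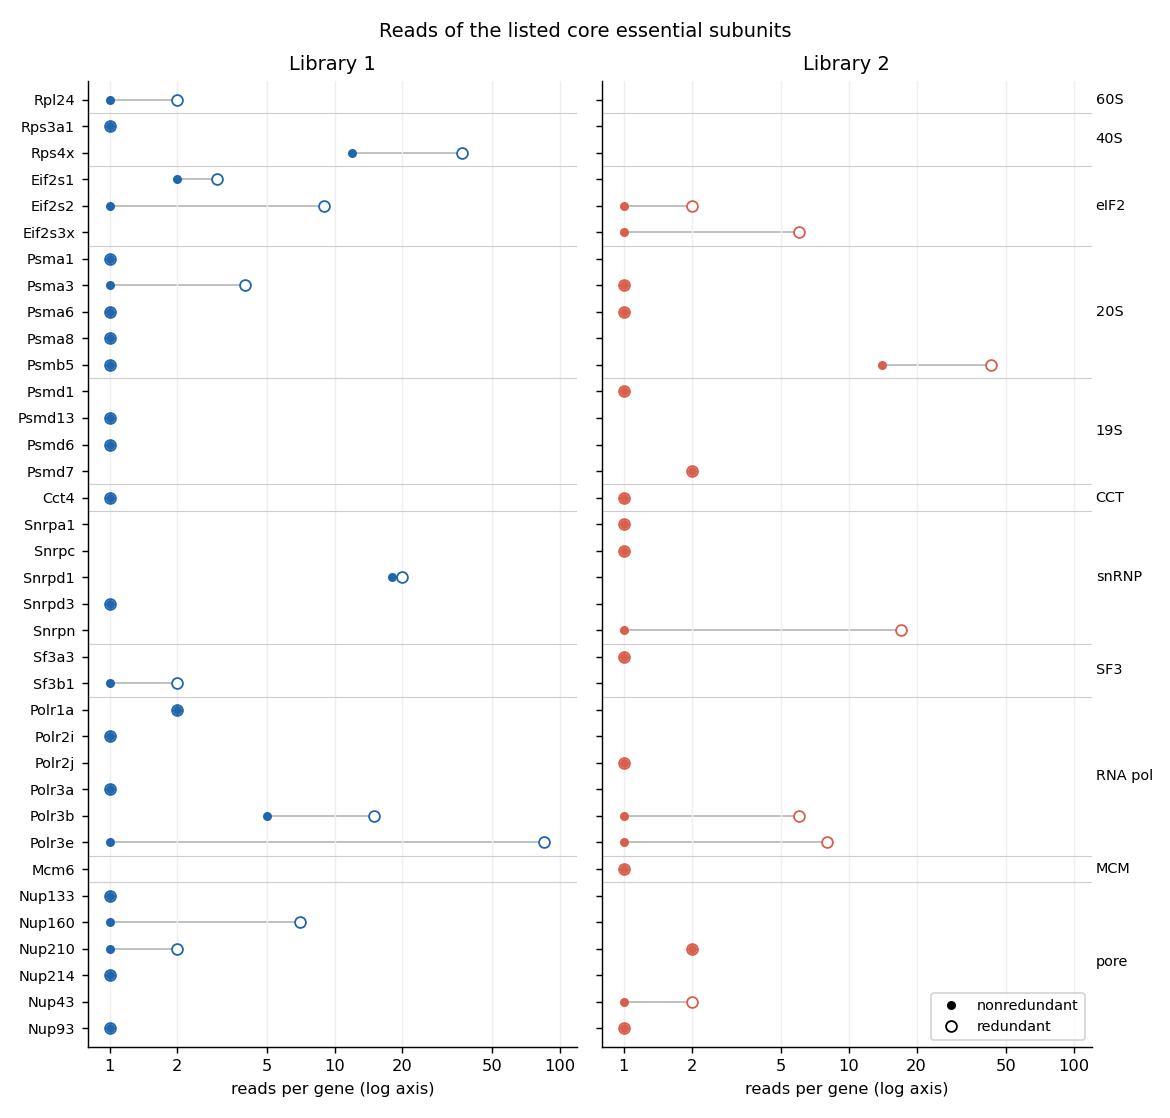
Nonredundant (filled) and redundant (open) reads of 36 listed members in library 1 (left) and library 2 (right), on a log axis of reads per gene, grouped by complex; a gene with no point was not listed in that library. Most filled points sit at 1 read, and Snrpd1 (18), Rps4x (12) and Psmb5 (14) are the 3 members at 10 or more.

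The ribosome, which translates mRNA into protein, had the lowest share of listed genes among the groups with 20 or more annotated genes. Of 80 annotated ribosomal protein genes, 3 were listed in library 1 (3.75%) and 0 in library 2. Beside Rps4x, these were Rpl24, a protein of the large subunit, with 1 nonredundant and 2 redundant reads, and Rps3a1, a protein of the small subunit, with 1 of each. The large subunit had 1 of 49 genes listed and the small subunit 2 of 31. All 80 genes fall in the 4 shortest of 10 length classes. There, 264 of 8414 genes were listed in library 1 (3.14%) and 159 in library 2 (1.89%). Most ribosomal genes (49 of 80) are in class 2, where 1 was listed in library 1 (against 1.43% of all genes) and 0 in library 2 (against 1.19%). In class 3, 2 of 15 were listed in library 1 (against 3.71%) and 0 in library 2 (against 2.00%). None of the 10 in class 1 or the 6 in class 4 was listed. The other 59 members in these 4 classes had 5 genes listed in library 1 (8.47%) and 6 in library 2 (10.2%). They are not matched to the ribosomal genes in length. Class 3 holds 38 members and class 4 holds 27, of which 15 and 6 are ribosomal. The share of all genes listed in library 1 was 0.333% in class 1 and 7.09% in class 4.

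The eIF2 complex brings the initiator tRNA to the small ribosomal subunit, and eIF2B exchanges its guanine nucleotide. Of the 9 annotated eIF2 and eIF2B genes, 2 were listed in each library (22.2%, against 19.9% of all genes in library 1 and 15.0% in library 2). Their median length class was 6, where 13.6% and 10.5% of all genes were listed. All 3 subunit types of eIF2 had reads, but these counts are too small to set eIF2 apart from eIF2B. Eif2s1, the alpha subunit phosphorylated under stress, had 2 nonredundant and 3 redundant reads in library 1 alone. Eif2s2, the beta subunit, had 1 nonredundant read in each library, with 9 redundant reads in library 1 and 2 in library 2. Eif2s3x, the X-linked gene of the gamma subunit, had 1 nonredundant and 6 redundant reads in library 2 alone. Its Y-linked counterpart Eif2s3y and the eIF2B genes were in neither table. The 12 genes of eIF3, the large scaffold of the initiation complex, were also listed in neither library. Their median length class was 5.5, and 9.89% of class 5 genes and 13.6% of class 6 genes were listed in library 1 (6.75% and 10.5% in library 2), so 0 of 12 is too small a count to set the complex apart.

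The proteasome degrades ubiquitin-tagged proteins. Of its 39 annotated genes, 7 were listed in library 1 (17.9%, against 19.9% of all genes) and 5 in library 2 (12.8%, against 15.0%). In both libraries 3 were listed (7.69%, against 8.25%). The median length class was 4 for the 20S core particle and 5 for the 19S regulatory particle. In classes 4 and 5, 7.09% and 9.89% of all genes were listed in library 1 (4.04% and 6.75% in library 2). In the 20S core particle, 5 of 19 genes were listed in library 1 and 3 in library 2. The ring subunits Psma3 and Psma6 had 1 nonredundant read in each library. Psma3 had 4 redundant reads in library 1 and 1 in library 2. Psma1 and the testis-restricted Psma8 had 1 read each in library 1 alone. With Psmb5, this means that 4 of the 5 listed genes of the core particle encode alpha-type subunits. These 4 rest on 1 nonredundant read in each library that listed them. Psma3 and Psma6 lie in length class 7 and Psma8 in class 8, where 20.3% and 27.6% of all genes were listed in library 1. The count is too small to set a subunit type apart. In the 19S regulatory particle, which recognises and unfolds substrates, Psmd6 and Psmd13 had 1 read each in library 1 alone, and Psmd1, a large scaffold subunit, had 1 in library 2 alone. Psmd7 had 2 nonredundant and 2 redundant reads in library 2 alone. None of the 6 ATPase genes of this particle (Psmc1 to Psmc6) was listed. In class 5, the median of the particle, just 9.89% of all genes were listed in library 1 and 6.75% in library 2. So 6 genes are too few to set the ATPases apart.

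CCT folds actin and tubulin, and Cct4 was its only listed gene of 8, with 1 nonredundant and 1 redundant read in each library. The background was 19.9% in library 1 and 15.0% in library 2, so 1 of 8 genes is too small a count to set the complex apart.

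Spliceosomal members were spread thinly over both libraries. None was listed in both, against 8.25% of all genes, 0.951% of class 4 genes and 1.33% of class 5 genes. So 0 of 21 is too small a count to set the group apart. Of 21 genes, 3 were listed in library 1 (14.3%, against 19.9% of all genes) and 4 in library 2 (19%, against 15.0%). The median length class was 4 for the Sm and snRNP genes and 5 for the SF3A and SF3B genes. In library 1 they were Snrpd1, its fellow Sm protein gene Snrpd3 with 1 nonredundant and 1 redundant read, and Sf3b1, which encodes the scaffold of the branch-site recognition complex, with 1 nonredundant and 2 redundant reads. In library 2 they were Snrpa1 (U2 small nuclear ribonucleoprotein), Snrpc (U1 small nuclear ribonucleoprotein), Sf3a3 and Snrpn, each with 1 nonredundant read. Snrpn, an imprinted gene that encodes a paralog of the Sm protein SmB, had 17 redundant reads behind its 1 nonredundant read. The other 3 had 1 redundant read each. Snrpn overlaps several other annotated genes, of which Snurf encodes a protein, and none of these was listed.

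RNA polymerase members, with a median length class of 4, had 5 of 28 genes listed in library 1 (17.9%, against 19.9% of all genes). In library 2, 4 genes were listed (14.3%, against 15.0%). RNA polymerase III, which makes tRNA and 5S rRNA, accounted for most of the listed genes, with 3 of 10 genes in each library and 4 in either. Polr3b, its second-largest subunit, had 5 nonredundant and 15 redundant reads in library 1 and 1 nonredundant and 6 redundant in library 2. It lies in length class 9, where 42.9% of all genes were listed in library 1. The other genes of this enzyme listed in library 1, Polr3e and Polr3a, lie in classes 7 and 8, where 20.3% and 27.6% were. Polr3e had 1 nonredundant read in each library but 85 redundant reads in library 1 and 8 in library 2. The 85 redundant reads are the most of any member, above the 43 of Psmb5 in library 2 and the 37 of Rps4x in library 1. Polr3a, the largest subunit, had 1 read in library 1 alone. Polr1a, the largest subunit of the polymerase that makes ribosomal RNA, had 2 nonredundant and 2 redundant reads in library 1 alone, the only listed gene of 5 for that enzyme. For RNA polymerase II, which makes mRNA, the small subunit genes Polr2i (library 1) and Polr2j (library 2) had 1 read each. These were 2 of 13 genes (15.4% in either library, against 26.6% of all genes). The counts per enzyme are too small to set any of the enzymes apart. Polr2i overlaps Tbcb in the RefSeq annotation, and Tbcb had 17 nonredundant reads in the same library. Whether any read was shared between the 2 genes was not tested.

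The MCM complex unwinds DNA ahead of the replication fork. Mcm6 was its only listed gene of 6, with 1 nonredundant and 1 redundant read in library 2. The background was 15.0% in library 2, so 1 of 6 genes is too small a count to set the complex apart.

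Numbered nucleoporins are the longest genes of the set, with a median length class of 8. In library 1, 5 of 19 were listed (26.3%) and in library 2, 3 (15.8%). Nup210, an integral membrane protein of the pore, had 1 nonredundant and 2 redundant reads in library 1 and 2 of each in library 2. Nup93, a scaffold of the inner ring, had 1 read in each library. Nup133 and Nup160 of the outer ring Y complex and Nup214 of the cytoplasmic side had 1 nonredundant read each in library 1 alone, with 7 redundant reads for Nup160 and 1 each for Nup133 and Nup214. Nup43, another Y complex member, had 1 nonredundant and 2 redundant reads in library 2 alone. No gene of this group passed 2 nonredundant reads in either library. In class 8, 27.6% of all genes were listed in library 1 and 22.0% in library 2.

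**Figure D2:**
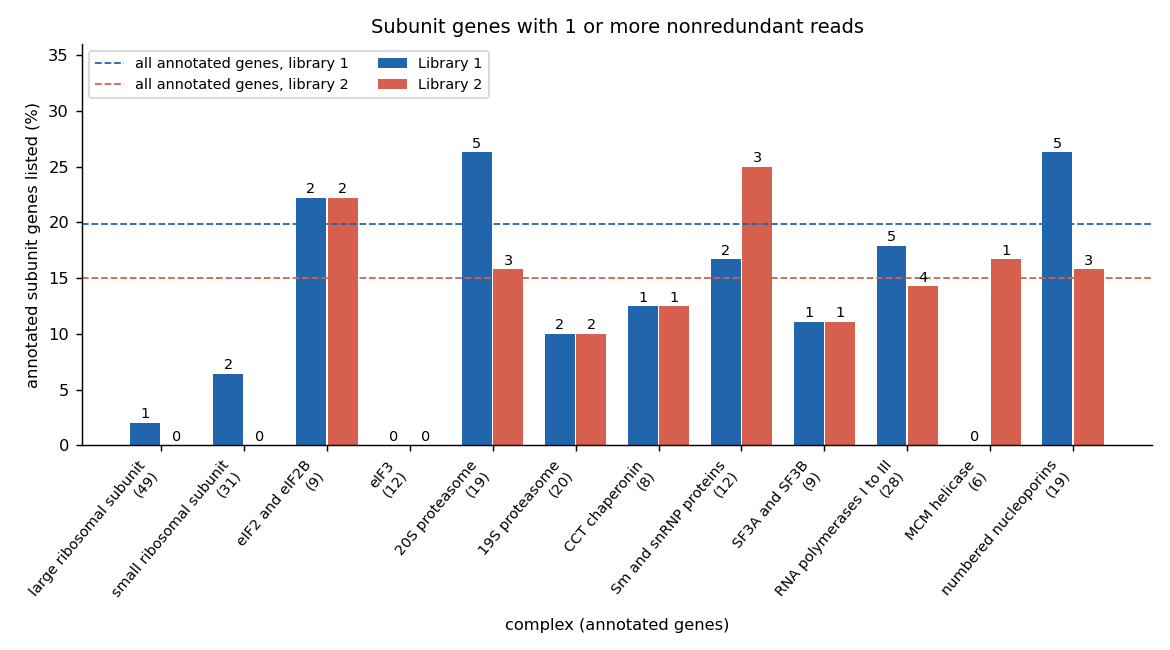
Percent of annotated subunit genes with 1 or more nonredundant reads in library 1 (left bar) and library 2 (right bar) of each complex, with the number listed above each bar and the number annotated in brackets; dashed lines mark all annotated genes (19.9% in library 1 and 15.0% in library 2). Ribosomal bars lie below the lines and eIF3 is at 0 in both libraries, while eIF2 and eIF2B, 20S proteasome and nucleoporin bars lie above the line of their library. The lines take no account of gene length.

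The share of all genes listed rose with length, and that of the members did so less evenly. All annotated genes were ranked by length and cut into 10 equal classes, from class 1 (shortest) to class 10. Of the 222 members, 160 (72.1%) fall in classes 1 to 5, and their median class is 3. The listed members had a median class of 6, against 9 for all genes listed in either library. In class 2, which holds 62 members, 2 were listed in library 1 (3.23%, against 1.43% of all genes) and 1 in library 2 (1.61%, against 1.19%). In class 4, 3 of 27 were listed in library 1 (11.1%, against 7.09%) and 4 in library 2 (14.8%, against 4.04%). In class 6, 2 of 22 were listed in each library (9.09%, against 13.6% and 10.5%). In class 7, 3 of 12 were listed in library 1 (25%, against 20.3%) and 4 in library 2 (33.3%, against 15.9%). In class 8, 4 of 14 were listed in library 1 (28.6%, against 27.6%) and 0 in library 2 (against 22.0%). In class 9, 5 of 12 were listed in library 1 (41.7%, against 42.9%) and 3 in library 2 (25%, against 29.3%). In classes 1 to 5 together, the members were listed in 6.88% of cases in library 1, against 4.49% of all genes, and in 5.62% in library 2, against 2.86%. In classes 6 to 9 the shares were 23.3% against 26.1% in library 1 and 15.0% against 19.4% in library 2. Over the shorter classes the member share was thus above that of all genes, and over classes 6 to 9 it was below. Neither difference was tested, and the members are not spread evenly within these groups of classes.

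**Figure D3:**
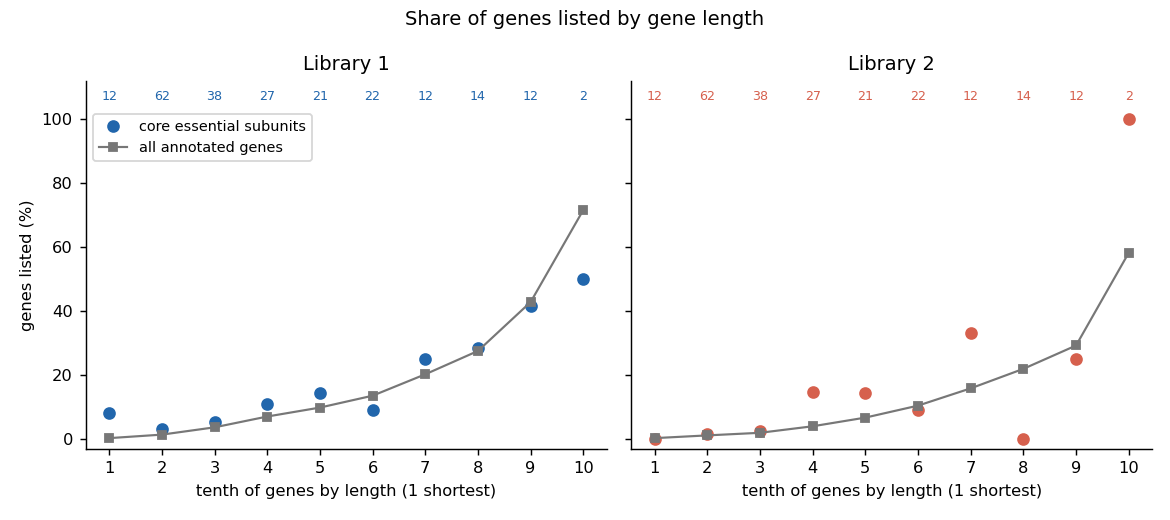
Percent of genes listed with 1 or more nonredundant reads in each of 10 length classes for the members (circles) and all annotated genes (squares and line) in library 1 (left) and library 2 (right); numbers along the top are annotated members per class. The circles stay near the line in classes 2 to 9 of library 1 and scatter about it in library 2. For both libraries, classes 7 to 10 hold just 2 to 14 annotated members each.

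Reads per listed gene were low in the members. Of the 26 listed in library 1, 21 had exactly 1 nonredundant read (80.8%, against 53.7% of all listed genes). Of the 20 listed in library 2, 17 did (85.0%, against 59.7%). Members with 2 or more reads made up 19.2% of those listed in library 1 (5 genes), against 46.3% of all listed genes, and 15.0% in library 2 (3 genes), against 40.3%. Members with 10 or more made up 7.69% in library 1, against 11.9%, and 5% in library 2, against 9.28%. Part of this gap went with length. In classes 1 to 5, 2 of 11 listed members had 2 or more reads in library 1 (18.2%, against 23.1% of all listed genes of these classes) and 2 of 9 in library 2 (22.2%, against 25.9%). In classes 6 to 9, 3 of 14 did in library 1 (21.4%, against 34.5%) and 1 of 9 in library 2 (11.1%, against 27.8%). Each of these member counts is 3 or less, so a change of 1 gene would move the share by several percentage points.

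**Figure D4:**
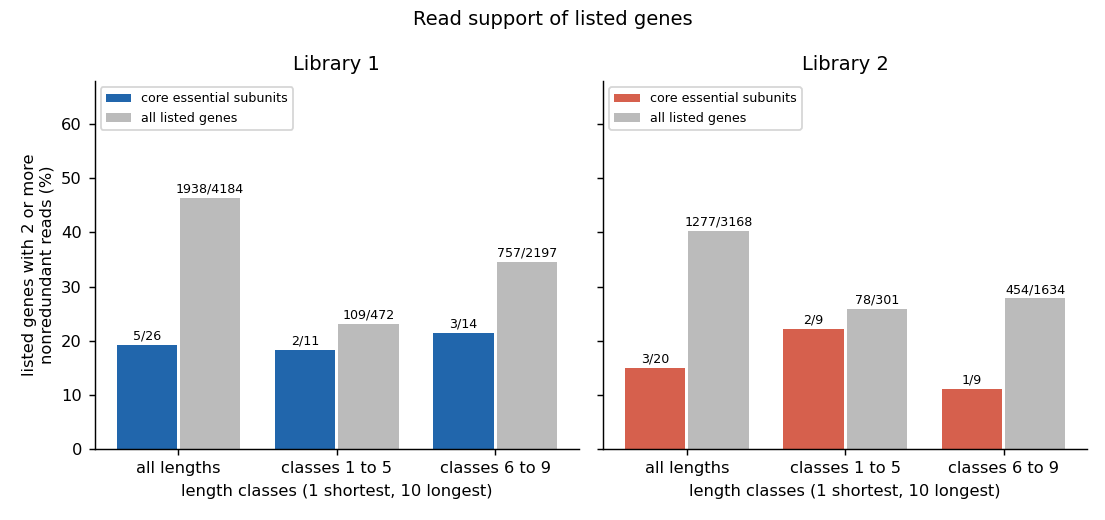
Percent of listed genes with 2 or more nonredundant reads for the members (left bar of each pair) and all listed genes (right bar, grey) in library 1 and library 2, over all lengths and within length classes 1 to 5 and 6 to 9; labels give genes with 2 or more reads over genes listed. The gap between the bars is 19.2% against 46.3% in library 1 over all lengths and narrows to 18.2% against 23.1% in classes 1 to 5.

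The 3 members with 10 or more reads were all short genes. Rps4x and Psmb5 lie in length class 2 and Snrpd1 in class 4. In classes 1 to 4, 3 of 139 members reached 10 or more reads in either library (2.16%, against 0.368% of all genes there, 31 of 8414). In classes 5 to 10, 0 of 83 members did (against 5.69% of all genes there, 718 of 12621). Class 10 held 405 of these 718 genes but just 2 of the 83 members, so these shares are not matched in length. Without class 10, 3 of 220 members reached 10 or more reads in either library (1.36%), against 344 of 18932 genes (1.82%). The shorter group of classes ends at that of Snrpd1, and the difference between the groups was not tested. The most reads in a member of the longer classes were the 5 of Polr3b.

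Of the 37 listed members 9 were found in both libraries, none with 2 or more reads in both. The shared members were Cct4, Eif2s2, Nup93, Nup210, Polr3b, Polr3e, Psma3, Psma6 and Psmb5. They made up 34.6% of the members in library 1 and 45.0% of those in library 2, against 41.5% and 54.9% for all listed genes, or 4.05% of the annotated members, against 8.25% of all annotated genes. Without the longest length class, 8 of 220 members were found in both libraries (3.64%), against 720 of 18932 genes (3.80%). At 2 or more reads in both libraries, 0 of 222 members were left, against 662 of 21035 genes (3.15%). Again without the longest class, this background was 122 of 18932 genes (0.644%), against 0 of 220 members. At 10 or more in both it was 0.204% of all genes. Of the 8 members with 2 or more reads in a library, 5 were not listed in the other and the other 3 (Nup210, Polr3b and Psmb5) had 1 read there.

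The 29 remaining members had 1 nonredundant read in every library that listed them, and 20 of these had 1 redundant read as well. At 1 nonredundant read, 14 of 21 members in library 1 had 1 redundant read (66.7%, against 76.9% of all genes with 1 nonredundant read), and 11 of 17 in library 2 (64.7%, against 74.0%). Counted on redundant reads, 12 of the 222 members had 2 or more in library 1, 9 in library 2, 17 in either and 4 in both. The shares of all annotated genes were 11.7%, 8.40%, 15.8% and 4.21%, in the same order. With 10 or more redundant reads there were 4 of the 222 in library 1, 2 in library 2, 6 in either and 0 in both. Here the shares of all annotated genes were 4.35%, 3.14%, 6.62% and 0.870%. The members that reached 10 or more redundant reads on 1 nonredundant read were Polr3e in library 1 and Snrpn in library 2. A lone read says little about whether a gene was disrupted, and the position that would show whether it lay in an exon or an intron is not in the tables. In the RefSeq annotation, 7 of the 37 genes overlap another protein-coding gene, and for 3 the overlapping gene was itself listed. Beside Polr2i with Tbcb, these were Nup43 with Pcmt1 and Rpl24 with Zbtb11, where the partner had 1 read in library 2.

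Partners of the same complexes whose symbols the pattern misses were counted in the same way. Over 6 lists with 85 genes, 18 were listed in library 1 (21.2%, against 19.9% of all genes) and 9 in library 2 (10.6%, against 15.0%). With 2 or more reads there were 6 (7.06%) and 1 (1.18%). None of 7 further ribosomal genes, such as Rplp0 and Rpsa, was listed. Of 29 further spliceosome genes, 6 were listed in library 1 and 4 in library 2, led by Prpf8, the scaffold of the catalytic centre, and the helicase gene Aqr, each with 2 nonredundant reads in library 1 and 1 in library 2. Among 13 proteasome regulators and assembly factors, 4 were listed in library 1 and 0 in library 2. Psme4, an activator of the core particle, had 3 reads and the deubiquitinase gene Uchl5 had 2, with 48 redundant reads behind them. In the chaperonin and prefoldin list, 1 of 7 genes was listed, Pfdn6 with 2 reads in library 1.

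Ranbp2, the large nucleoporin of the cytoplasmic filaments, had 44 nonredundant and 398 redundant reads in library 1 alone. It was the only gene of these 6 lists with 10 or more nonredundant reads. In the same list of 13 pore genes, 4 were listed in library 1 and 3 in library 2, and Aaas had 2 nonredundant and 25 redundant reads in library 2. Of 16 replication origin genes, 3 were listed in library 1 and 2 in library 2, each with 1 nonredundant read.

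Kinases whose symbols resemble those of ribosomal and initiation factor genes are signalling enzymes and not subunits. Of 14, 8 were listed in library 1 (57.1%, against 19.9% of all genes) and 5 in library 2 (35.7%, against 15.0%). Their median length class is 9, in which 42.9% of all genes were listed in library 1 and 29.3% in library 2. Of the 14, 5 are in class 10, in which 71.7% of all genes were listed in library 1 and 58.3% in library 2. Eif2ak4, the kinase that senses uncharged tRNA and phosphorylates Eif2s1, had 31 reads in library 1 alone. Rps6ka3 had 5 reads in library 1 and 1 in library 2, and Rps6kc1 had 1 in library 1 and 4 in library 2. Rps6ka5 had 3 in library 1 alone. All 14 are outside the counts of members given above.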

How the data were processed

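Genomic DNA junctions of piggyBac insertions were amplified by splinkerette PCR and sequenced on a HiSeq 2500, per the labels' protocols. CASAVA, BWA and mm9, the mouse build, are given without versions, per the submitters' processing notes. Each of the 2 deposited tables pools 2 samples and holds raw read counts per gene, nonredundant and redundant, by the authors. The sources used here do not give the rule that assigned reads to genes or the definition of nonredundant. Depth was 55442 nonredundant and 877870 redundant reads in library 1 and 48750 and 1300140 in library 2.

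Genes were matched through transcripts, then symbol or synonym, to the RefSeq table of GRCm38.p6: 4182 of 4184 genes of library 1 and 3167 of 3168 of library 2. Its lengths served only to order genes into 10 classes, since its build differs from mm9. Counts at minima of 1, 2 and 10 nonredundant reads were set beside the same over 21035 genes with curated transcripts. Named genes are the listed members, of which 1 is not reported here by name but stays in the counts, and partner genes from fixed lists with 2 or more reads. A single partner symbol below that, or an overlapping gene, is given where a count needs it. No test was made, since each library is 1 pooled table. Intervals are exact Clopper-Pearson 95% intervals. Members, complexes and lists were chosen with earlier results of these data known. The symbol rule, counts and intervals were tested on simulated data. Python 3.11.15, pandas 2.3.3, NumPy 2.4.6, SciPy 1.17.1 and matplotlib 3.10.9 were used. Alternatives were redundant reads, stricter read minima, a narrower member set, protein-coding genes as background and the removal of leading genes.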

Additional observations from a re-analysis of the deposited data

How the results depend on the processing

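The read minimum decided how many members were counted. At a minimum of 2 nonredundant reads, the 26 members of library 1 became 5, the 20 of library 2 became 3, the 37 in either library became 8 and the 9 in both became 0. At a minimum of 10 they became 2, 1, 3 and 0. Counted on redundant reads, members with 2 or more reads numbered 12 in library 1 in place of 5, 9 in library 2 in place of 3, 17 in either in place of 8 and 4 in both in place of 0. Members with 10 or more redundant reads numbered 4 in library 1 in place of 2, 2 in library 2 in place of 1 and 6 in either in place of 3. The share of library reads held by the members, 0.108% in library 1 and 0.0718% in library 2, was 0.023% and 0.00761% on redundant reads. Without the member with most reads it was 0.0758% and 0.0431%. Without the 10 genes with most reads it was 0.129% in library 1, inside the counting interval, and 0.124% in library 2. Leaving out tissue-restricted paralogs, inducible subunits and assembly factors removed 1 gene from library 1 (Psma8) and 1 from library 2 (Snrpn), which left 25 and 19 listed members and left the counts at 2 and 10 or more reads as they were. Protein-coding genes as background left its shares at 19.9% and 15.0%. The split of read support by gene length was chosen after the data were examined. No paired analysis was possible because each table pools its 2 samples, and for the same reason no sample could be left out. Depth limits all of these counts, since the usual listed member had 1 read, and a gene without reads may have been missed.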
